A study of Caenorhabditis elegans with 12 samples.

Results

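The oldest oocyte sampled in this series, at position -1, was compared with the youngest, at position -5, over all genes that passed a filter on low counts, 8718 of 46903. Each library held the RNA of 1 oocyte from an untreated adult Caenorhabditis elegans of wild-type genotype, and 4 libraries stood at each of these positions. They are 8 of the 12 libraries of the series, whose remaining 4, at position -3, entered the filter and the scaling but not the comparison. Numbering starts at the spermatheca, which makes oocyte -1 the next to be ovulated. The labels name no animal for any oocyte, so each position was taken as 1 sample. No test between the positions was therefore made, and the values below describe these 8 cells.

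Oocytes of this worm line up in single file in the proximal arm of the gonad, arrested in the prophase of meiosis I. They grow by cytoplasm that streams in from the shared germline syncytium and by endocytosis of yolk made in the intestine, and transcription largely stops as they near the spermatheca. Oocyte -1 therefore carries a stock of maternal messenger RNA, much of it held silent by RNA-binding proteins until maturation and fertilisation. The proteins and sugars of the eggshell, which forms soon after fertilisation, are prepared in the oocyte beforehand.

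Libraries were made from the 3' ends of transcripts that carry a poly(A) tail, amplified by PCR, and the values are raw read counts per gene. They held 8358019 to 19104635 counts in the oocytes -1 and 11226569 to 15832936 in the oocytes -5. A level below pools the 4 oocytes of a position, as their summed count relative to the sum of their scaled library sizes, in CPM, with an exact Poisson interval at 95%. Reads are not independent molecules here, so intervals cover counting error only. In 1 library 3 counts were worth 0.146 to 0.337 CPM. The log2 ratio is the level in oocyte -1 over that in oocyte -5, computed against a floor of 3 counts over a group, and is positive where oocyte -1 was higher. A signed value or one in brackets that carries no unit is such a log2 ratio, and medians of lists are medians of it. In values scaled to the library, less transcript of a gene cannot be told apart from more of all the others, and RNA carried along from neighbouring cells cannot be told apart from the oocyte's own.

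All 8 libraries carried the transcripts that mark a late oocyte. The gene oma-1, which with oma-2 licenses oocyte maturation, stood at 819 to 1035 CPM, the embryonic fate regulator pos-1 at 1892 to 2668 CPM and lin-41, which holds back maturation during growth, at 64.1 to 181 CPM. Of 50 sperm genes 2 passed the filter, and that list took 0.000476% to 0.00347% of the counts of an oocyte -1 and 0.000739% to 0.00153% of an oocyte -5. Of the somatic lists, muscle markers were highest in oocyte -1 replicate 1, and cuticle collagens and sheath markers in oocyte -5 replicate 4. Results that rest on these libraries are given with and without both.

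The transcriptome as a whole sorted the 8 oocytes by position only in part. Over the 5154 genes whose mean level reached 20 CPM, the median size of the log2 difference between an oocyte -1 and an oocyte -5 was 0.273 to 0.464 over the 16 pairs, with a median of 0.328. Between 2 oocytes -1 it was 0.249 to 0.367 with a median of 0.297 (6 pairs), and between 2 oocytes -5 it was 0.25 to 0.439 with a median of 0.356 (6 pairs). The median between positions thus lay between the medians within each, while the largest distance of any pair was one between positions. The nearest neighbour of oocyte -1 replicate 1 was oocyte -5 replicate 4, whereas each of the other 7 oocytes was nearest to one of its own position. Even at -1 alone, 21.3% of these genes ranged over at least 2-fold among the 4 cells, and at -5 24.3% did.

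**Figure D1:**
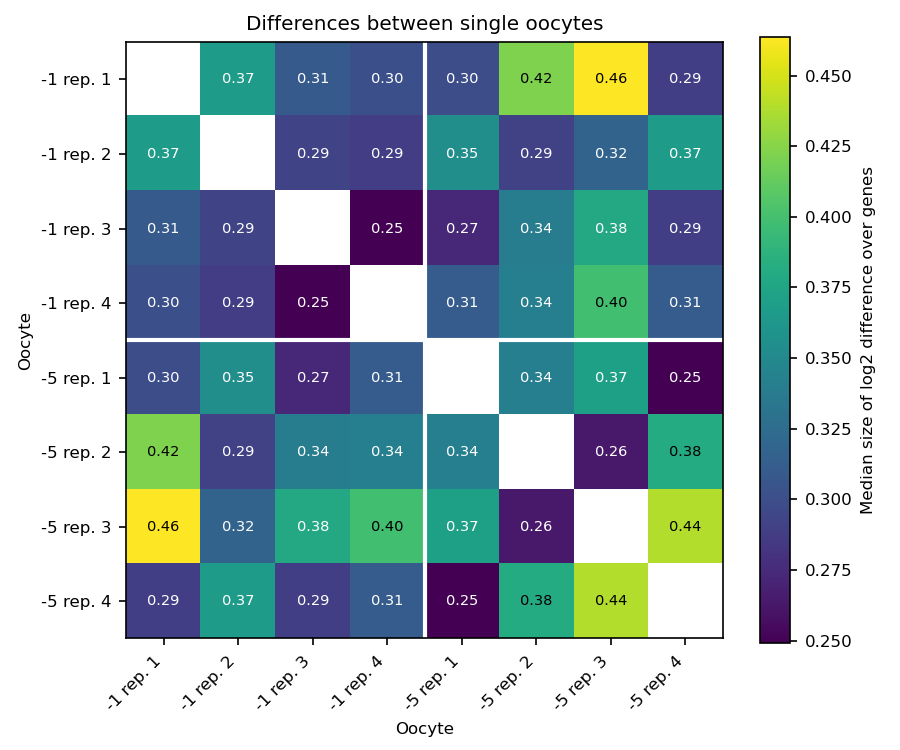
Median size of the log2 difference over 5154 genes (pseudocount 0.5 CPM) for each pair of the 8 single oocytes, with oocytes -1 above and left of the white lines and oocytes -5 below and right. The lowest value, 0.249, lies between replicates 3 and 4 of oocyte -1, and the highest, 0.464, between oocyte -1 replicate 1 and oocyte -5 replicate 3.

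Few genes stood apart between the positions. Of the 8718 genes, 466 (5.35%) were at least 2-fold higher in oocyte -1 and 646 (7.41%) at least 2-fold lower. The ranges of the 4 oocytes -1 and the 4 oocytes -5 did not overlap for 230 genes that were higher in oocyte -1 (2.64%) and 252 that were lower (2.89%). Both criteria held for 63 higher genes (0.723%) and 90 lower genes (1.03%), or 153 in all (1.75%), and a gene that met both is called separated below. Leaving out 1 oocyte loosens the criterion of no overlap by construction and gave 85 to 142 separated higher and 122 to 155 separated lower genes, the most without oocyte -5 replicate 4 in both directions. The 2-fold differences came mostly from genes of few reads, since they made up 52% of genes under 1 CPM and 1.5% of genes between 20 and 100 CPM. Among the 5154 genes of at least 20 CPM, 12 were at least 2-fold higher (0.233%) and 63 at least 2-fold lower (1.22%), and 160 were higher (3.1%) and 182 lower (3.53%) without overlap. Of them 9 were separated and higher (0.175%) and 33 separated and lower (0.64%). Of the 90 genes at or above 1000 CPM, 4 were at least 2-fold lower in oocyte -1 and 0 at least 2-fold higher. The median log2 ratio over all 8718 genes was -0.01, with 4272 higher and 4446 lower.

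**Figure D2:**
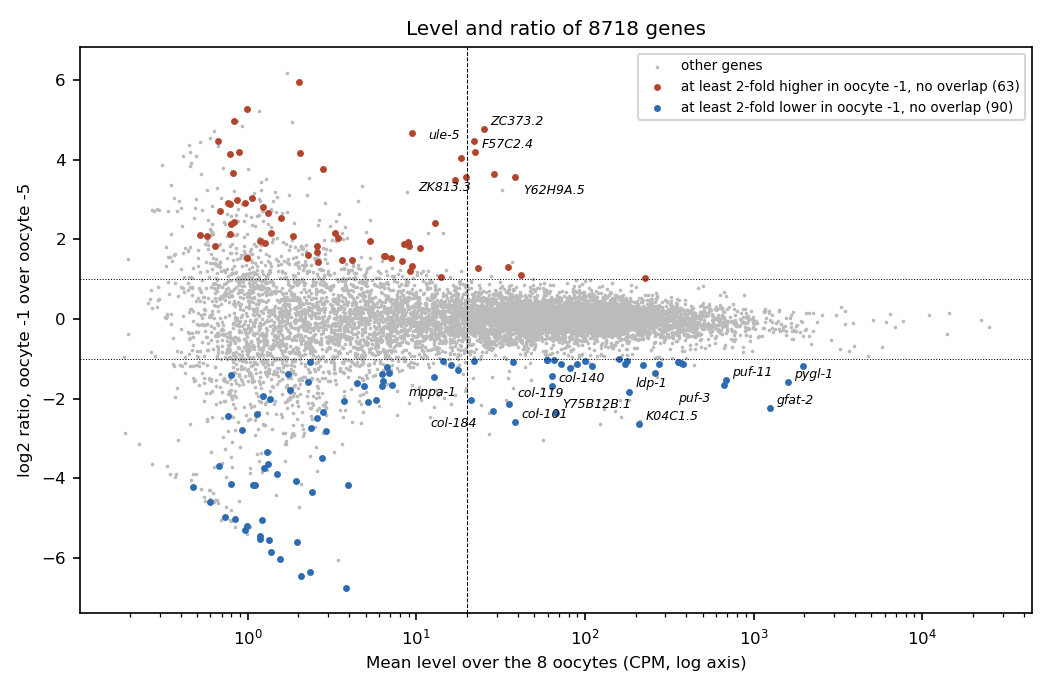
Log2 ratio of oocyte -1 over oocyte -5 against the mean level over the 8 oocytes for 8718 genes, with the 2-fold limits as dotted lines and 20 CPM as a dashed line. Coloured points are the 63 higher and 90 lower genes whose oocytes do not overlap, and to the right of 20 CPM the lower genes outnumber the higher ones, 33 against 9.

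Among genes of at least 20 CPM without overlap, those with the largest ratios towards oocyte -1 stood low in oocyte -5. ZC373.2, a gene on X at 10057925 to 10058437, had 57.96, 45.2, 26.7 and 64.2 CPM in the 4 oocytes -1 and 1.51, 4.11, 2.61 and 0.343 CPM in the 4 oocytes -5. Its levels were 53.1 CPM in oocyte -1 (95% interval 51.3 to 54.99) and 1.96 CPM in oocyte -5 (1.6 to 2.37), which is 27.1-fold higher in oocyte -1. The log2 ratio was 4.76, or 5.37 without oocyte -5 replicate 2. Each oocyte -1 lay above each oocyte -5. The gene ule-5 belongs to the uterine lumen expressed class, named for the lumen of the uterus, and had 55.00, 42.6, 19.7 and 50.5 CPM in the 4 oocytes -1 and 4.2, 2.45, 2.32 and 0.114 CPM in the 4 oocytes -5. Its log2 ratio was 4.47. F57C2.4 had 46.8, 59.6, 17.9 and 44.5 CPM in the 4 oocytes -1 and 9.11, 0.079, 0.969 and 0.114 CPM in the 4 oocytes -5, so that 1 oocyte -5 held most of the reads at that position. Its log2 ratio was 4.19, and 7.10 without that oocyte, replicate 1. In ZK813.3 and Y62H9A.5 the oocyte -5 that stood out was replicate 3. ZK813.3 had 50.96, 40.2, 22.5 and 93.9 CPM in the 4 oocytes -1 and 3.25, 2.45, 16.6 and 0.458 CPM in the 4 oocytes -5, with a log2 ratio of 3.64, or 4.98 without that replicate. Y62H9A.5 had 52.3, 67.1, 31.2 and 124.03 CPM in the 4 oocytes -1 and 3.57, 2.69, 25.08 and 0.0572 CPM in the 4 oocytes -5, with a log2 ratio of 3.57, or 5.34 without it. Oocyte -1 replicate 3, the library of fewest counts, was the lowest of its position for all 5 genes.

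Several of these genes lay side by side in the genome. Of the 63 separated genes that were higher in oocyte -1, 9 lay within 5000 bases of another, in 5 pairs, whereas of the 90 that were lower, 2 did, in 1 pair. How often filtered genes in general lie this close was not counted, so these numbers only describe the separated genes. On X, Y62H9A.4 (11880124 to 11881264), Y62H9A.5 (11882144 to 11882917) and ule-5 (11883127 to 11884043) are 880 and 210 bases apart. Y62H9A.4 had 1.36, 8.73, 5.38 and 5.28 CPM in the 4 oocytes -1 and 0.792, 0, 0.775 and 0 CPM in the 4 oocytes -5, and its ratio was 3.76 on the log2 scale, or 4.54 without oocyte -5 replicate 1. Next to them Y62H9A.3 stood at 2.19, or 1.28 without oocyte -1 replicate 4, with overlapping oocytes. On V, at 10791975 to 10794924, D1054.10 lies 963 bases from ule-3, another gene of the uterine lumen class. D1054.10 had 38.8, 35.4, 27.6 and 35.4 CPM in the 4 oocytes -1 and 2.14, 2.21, 5.71 and 0 CPM in the 4 oocytes -5, and a log2 ratio of 4.04, or 4.78 without oocyte -5 replicate 3. For ule-3 the values were 58.2, 16.6, 24.004 and 42.1 CPM in the 4 oocytes -1 and 0.555, 1.34, 14.8 and 0.286 CPM in the 4 oocytes -5, with a log2 ratio of 3.55, or 5.89 without oocyte -5 replicate 3. The same oocyte -5 thus held most of the -5 reads of both neighbours. A further locus on X holds ZK813.3 (3441839 to 3442458) and ZK813.7 (3444802 to 3445283). ZK813.7 had 12.2, 45.7, 14.6 and 49.9 CPM in the 4 oocytes -1 and 0.238, 1.19, 12.01 and 0.286 CPM in the 4 oocytes -5, and a log2 ratio of 3.49, or 5.86 without oocyte -5 replicate 3, which was high for ZK813.3 as well. ZK813.2, which lies between that pair, had a log2 ratio of -0.26, but 2.16 without oocyte -5 replicate 1, which held 19.6 CPM. On the far side of ZK813.7, ZK813.1 stood at 3.18, or 5.50 without oocyte -5 replicate 3, and 1.93 without oocyte -1 replicate 4, with overlapping oocytes. Beyond the stretches, sax-3, an axon guidance receptor gene next to ZK813.1, stood at 0.02, and secs-1 and the splicing factor gene prp-38, beyond ule-3, at 0.13 and -0.04. On II, F44E5.4, a gene of the HSP70 family with a near-identical neighbour that makes its counts uncertain, had a log2 ratio of 1.45 and F44E5.16, 187 bases away, at 2.04. The loci were chosen after their values were seen. Of the 4 measured members of the uterine lumen list 2 were separated and higher, ule-3 and ule-5, and 2 were at least 2-fold lower with overlapping oocytes. Among all filtered genes 0.723% were separated and higher and 7.41% at least 2-fold lower. With 4 members nothing is read about the class. Of the lower pair, ule-2 had a log2 ratio of -1.02, or 2.2 without oocyte -5 replicate 1, and ule-4 had a log2 ratio of -1.11, or 1.42 without oocyte -5 replicate 1, which held 61.6 CPM.

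**Figure D3:**
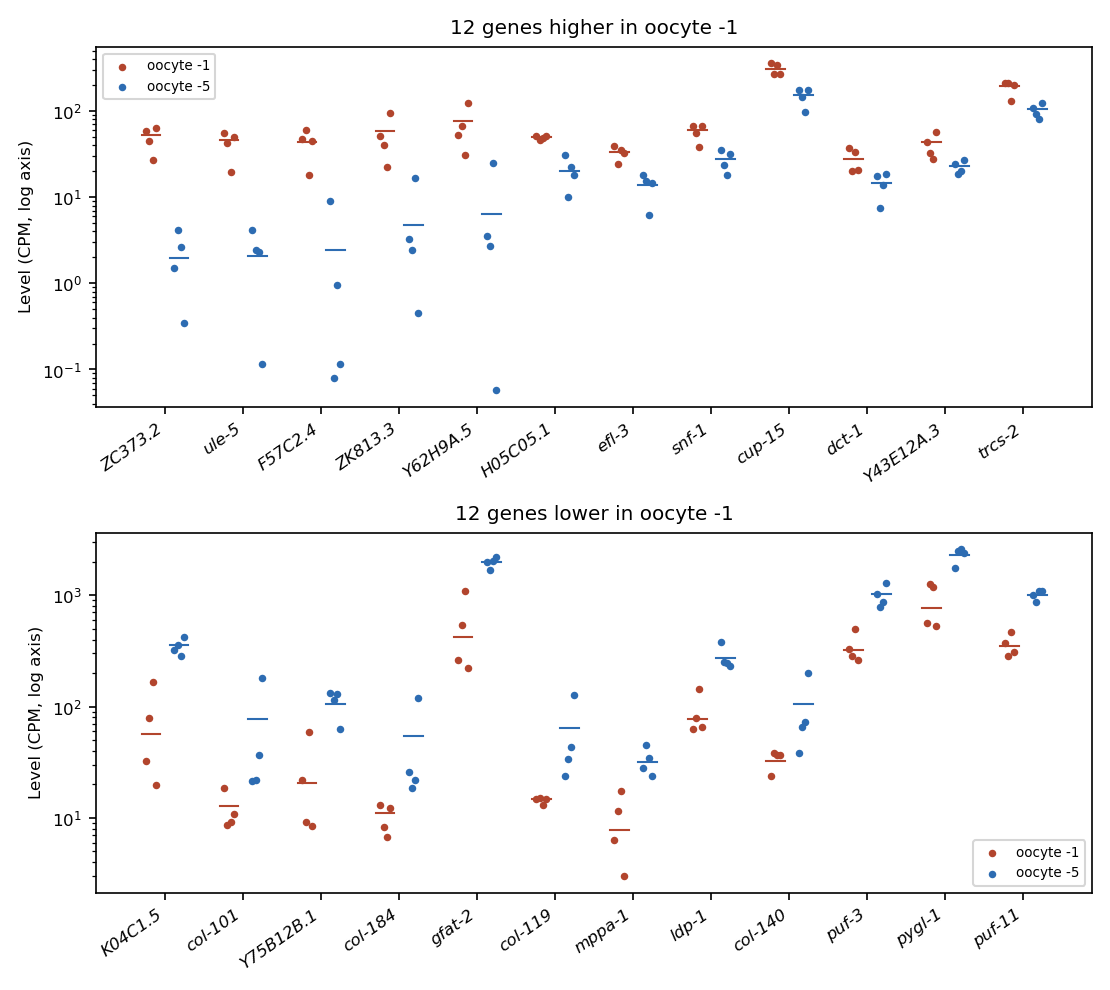
Level of each single oocyte (points, CPM on a log axis) and level of the position (lines) for the 12 genes with the highest and the 12 with the lowest log2 ratio among genes of at least 20 CPM without overlap, with oocyte -1 left of oocyte -5. ZC373.2 lies at 26.7 to 64.2 CPM in oocyte -1 and 0.343 to 4.11 CPM in oocyte -5, and gfat-2 at 219.8 to 1091 CPM in oocyte -1 and 1696 to 2188 CPM in oocyte -5.

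After these, the differences towards oocyte -1 were much smaller. H05C05.1 stood at 49.9 CPM in oocyte -1 and 20.1 CPM in oocyte -5 (1.31), and efl-3, a gene of the E2F transcription factor family, at 33.7 CPM in oocyte -1 and 13.98 CPM in oocyte -5 (1.27). The sodium-dependent transporter gene snf-1 had 66.1, 55.1, 38.2 and 66.2 CPM in the 4 oocytes -1 and 35.02, 23.4, 18.2 and 31.8 CPM in the 4 oocytes -5, a log2 ratio of 1.11. The gene cup-15, named for a defect in uptake by coelomocytes, had 358, 268, 339 and 266 CPM in the 4 oocytes -1 and 174, 144, 96.5 and 174 CPM in the 4 oocytes -5. At 2.03-fold higher in oocyte -1 it had the highest level of the 9 separated genes of at least 20 CPM. Below the 2-fold limit but without overlap lay dct-1, a mitophagy receptor gene (0.93), Y43E12A.3 (0.92) and trcs-2 (0.91). The level at position -3 lay between those of -1 and -5 for 9 of the 12 highest ratios and 11 of the 12 lowest. These genes were chosen for wide gaps between -1 and -5, into which the level at -3 falls more readily. Its share over all filtered genes was not counted, so these numbers only describe the chosen genes and are no evidence of a graded change.

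By difference in CPM rather than by ratio, the largest difference towards oocyte -1 among genes without overlap was that of a P granule gene. P granules are condensates of RNA and protein in germ cells, and pgl-1 encodes a scaffold of theirs. It had 685, 655, 552 and 673 CPM in the 4 oocytes -1 and 394, 340.1, 288 and 424 CPM in the 4 oocytes -5, 1.77-fold higher in oocyte -1 and without overlap. Its paralog pgl-3 went the other way, at 231 CPM in oocyte -1 and 391 CPM in oocyte -5 (-0.76), with overlapping oocytes. The fibrillarin gene fib-1, whose product modifies ribosomal RNA in the nucleolus, had 943, 678, 817 and 816 CPM in the 4 oocytes -1 and 633, 584, 437 and 559 CPM in the 4 oocytes -5 (0.58). Cyclin B gene cyb-1 had 772, 692, 708 and 709 CPM in the 4 oocytes -1 and 594, 503, 434 and 676 CPM in the 4 oocytes -5 (0.36), and the proteasome gene rpn-2 stood at 607 CPM in oocyte -1 and 472 CPM in oocyte -5 (0.36). F14H3.6 was also among the 6, at 0.60. None of these reached 2-fold except cup-15, which was named above.

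Among genes lower in oocyte -1, the first step of amino sugar synthesis stood out. The gene gfat-2 (IV, 11410228 to 11413001) encodes glutamine-fructose-6-phosphate aminotransferase, which opens the hexosamine pathway to the precursor of chitin, the polymer of the eggshell. It had 262, 538, 1091 and 219.8 CPM in the 4 oocytes -1 and 1985, 1696, 2021 and 2188 CPM in the 4 oocytes -5. Oocyte -1 was 4.73-fold lower, a log2 ratio of -2.24, and the highest oocyte -1, replicate 3, still lay below the lowest oocyte -5. Its paralog gfat-1 had 409, 707, 1266 and 345 CPM in the 4 oocytes -1 and 1769, 1157, 1597 and 1473 CPM in the 4 oocytes -5, a log2 ratio of -1.39 with overlap through the same replicate 3. Of the 10 measured genes from hexokinase to chitin synthase, 1 was higher in oocyte -1, and the median log2 ratio was -0.23. Before gfat-2, the hexokinase genes hxk-1, hxk-2 and hxk-3 had log2 ratios of -0.42, -0.13 and 0.33 and the isomerase gene gpi-1 -0.08. After it, the acetyltransferase genes gna-1 and gna-2 had -0.03 and -0.04, and C36A4.4 had -0.32. For chitin synthase itself, chs-1 had a level of 593 CPM in oocyte -1 and 1060.5 CPM in oocyte -5 (-0.84), with overlap.

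Transcripts for the proteins of the eggshell were lower in oocyte -1 as a list. Its 13 measured members had a median log2 ratio of -0.69, or -0.72 without both libraries that stand apart. Of the 13, 3 were higher, 3 were lower without overlap, as were 2.89% of all filtered genes, and 1, perm-1, was separated, as were 1.03% of all in that direction. The highest member, cpg-9, went the other way at 1.26, with overlap, and ranged from 0.58 to 2.53 with 1 oocyte left out. The permeability barrier gene perm-1 had 67.3, 68.3, 91.5 and 48.98 CPM in the 4 oocytes -1 and 228, 102, 152 and 121 CPM in the 4 oocytes -5 (-1.19). The gene cbd-1, whose product binds chitin in the outer layer and which is among the 10 most abundant transcripts, had 4585, 3653, 5504 and 3980.1 CPM in the 4 oocytes -1 and 9554, 5514, 6710.1 and 6515 CPM in the 4 oocytes -5, 1.62-fold lower in oocyte -1. No other gene without overlap was lower in oocyte -1 by more CPM. The gene egg-2, whose product at the oocyte surface is needed for sperm entry, stood at 141 CPM in oocyte -1 and 213 CPM in oocyte -5 (-0.59), and the proteoglycan genes cpg-1 and cpg-2 at -0.76 and -0.69 with overlap. In this list oocyte -1 replicate 3 and oocyte -5 replicate 1 were the highest of their positions, with 1.46%, 1.48%, 2.06% and 1.26% of the counts of the 4 oocytes -1, and 3.04%, 2.02%, 2.15% and 2.25% of those of the 4 oocytes -5. The genes perm-2 and perm-4, neighbours on IV, varied more within a position than between positions. Values of perm-2 were 135, 11.8, 113 and 21.8 CPM in the 4 oocytes -1 and 114, 219.9, 65.2 and 1009.9 CPM in the 4 oocytes -5, and those of perm-4 were 331, 23.1, 244 and 27.9 CPM in the 4 oocytes -1 and 85.1, 310.5, 92.8 and 1019 CPM in the 4 oocytes -5. Their log2 ratios of -2.56 and -1.47 were -0.94 and -0.05 without oocyte -5 replicate 4, and -3.43 and -2.58 without oocyte -1 replicate 1, and -1.80 and -1.16 without both. Oocyte -5 replicate 4 also had the highest share of sheath markers, 0.109%. The part of those cells in it was not tested.

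Single genes of carbon and lipid metabolism were lower in oocyte -1 while the medians of their lists lay near 0. The glycogen phosphorylase gene pygl-1, which releases glucose from glycogen, had 561, 1255, 1179 and 531 CPM in the 4 oocytes -1 and 1759, 2523, 2594 and 2377 CPM in the 4 oocytes -5, 3-fold lower in oocyte -1. The phosphoglycerate mutase gene ipgm-1 had 38.7, 55.05, 72.7 and 40.9 CPM in the 4 oocytes -1 and 112, 113, 110.3 and 108 CPM in the 4 oocytes -5 (-1.22), with the 4 oocytes -5 close together. These 2 were the separated members among 23 measured genes of glycogen and glycolysis, where 1.03% of all filtered genes were separated and lower. The list was added after seeing the data, so its counts only describe it, and its median was -0.04. Without overlap 3 of the 23 were lower and 1 higher, beside 2.89% and 2.64% of all filtered genes. Its highest member was gyg-1, at 0.93. The ATP citrate lyase gene acly-2, which supplies acetyl-CoA for fatty acids, had 99.3, 161, 297 and 101 CPM in the 4 oocytes -1 and 429, 367, 308 and 334 CPM in the 4 oocytes -5 (-1.36). The fatty acid synthesis list of 18 had a median of -0.12, and its fatty acid synthase gene fasn-1 stood at 7.3 CPM in oocyte -1 and 27.5 CPM in oocyte -5 (-1.91) with overlap, or -1.24 without oocyte -5 replicate 4 and -1.41 without both libraries. Outside these lists, the malate dehydrogenase gene mdh-1 (-1.13), the pyrimidine synthesis gene umps-1 (-1.14) and the mitochondrial processing peptidase gene mppa-1 (-2.04) were separated and lower. The 17 genes of the TCA cycle had a median of 0.01.

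Genes of unknown or less certain role held some of the lowest ratios. K04C1.5 (X, 14248053 to 14249846) had 32.4, 79.6, 168 and 19.7 CPM in the 4 oocytes -1 and 319, 355, 286 and 422 CPM in the 4 oocytes -5. It was 6.27-fold lower in oocyte -1, and its log2 ratio was -2.65, or -3.24 without oocyte -1 replicate 3. Y75B12B.1 had 21.8, 9.1, 58.9 and 8.37 CPM in the 4 oocytes -1 and 132, 115, 128 and 62.9 CPM in the 4 oocytes -5 (-2.35), and ldp-1 had 62.2, 78.3, 142 and 64.8 CPM in the 4 oocytes -1 and 383, 249.9, 248 and 232 CPM in the 4 oocytes -5 (-1.82). In all 3 genes, as in gfat-2, oocyte -1 replicate 3 was the highest of its position. It was so in 20 of the 33 separated lower genes of at least 20 CPM, and oocyte -1 replicate 4 was the lowest in 19 of them. The 4 oocytes of position -1 thus differed in how far they lay below oocyte -5.

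Yolk enters the oocyte through the receptor RME-2, and both the receptor gene and the GTPase gene of the early endosome were lower in oocyte -1. For rme-2 (IV, 5469961 to 5473174) the values were 1022, 1452, 1270.0 and 1097 CPM in the 4 oocytes -1 and 3059, 2529.6, 3400.3 and 1911 CPM in the 4 oocytes -5. Its levels were 1161 CPM in oocyte -1 (95% interval 1153 to 1170.1) and 2621 CPM in oocyte -5 (2608 to 2635), 2.26-fold lower in oocyte -1. The gene rab-5 had 274, 195, 304 and 189 CPM in the 4 oocytes -1 and 498, 511, 487 and 533 CPM in the 4 oocytes -5, 2.16-fold lower in oocyte -1. In both genes every oocyte -1 lay below every oocyte -5. The recycling GTPase gene rab-35 was lower without overlap, at 61.5 CPM in oocyte -1 and 93.5 CPM in oocyte -5 (-0.60). Of the 26 measured genes of uptake and endocytosis 2 were separated and 3 lower without overlap. Among all filtered genes 1.03% were separated and lower and 2.89% lower without overlap. The remaining genes did not follow, and the 26 had a median of -0.07, with rme-1 at -0.13, the clathrin gene chc-1 at -0.19 and rab-11.1 at -0.06. In the secretory pathway the coatomer gene copa-1 was separated, at 136 CPM in oocyte -1 and 301 CPM in oocyte -5 (-1.15). The 21 measured genes had a median of -0.19, and 3 of them were lower without overlap. Of 18 genes of the proton pump V-ATPase 4 were higher and 2 lower without overlap, with a median of -0.20.

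Among the RNA-binding proteins that hold maternal transcripts silent, 2 members of the Pumilio family were separated. They were the only separated genes of the 36 measured, where 1.03% of all filtered genes were separated and lower. Without overlap 4 of the 36 were lower and 1 higher, beside 2.89% and 2.64% of all filtered genes. The gene puf-3 had 326, 287, 496 and 259 CPM in the 4 oocytes -1 and 1023, 779.7, 872 and 1277 CPM in the 4 oocytes -5 (-1.66), and puf-11 had 369.6, 286, 469 and 310.2 CPM in the 4 oocytes -1 and 1002, 867, 1082 and 1093 CPM in the 4 oocytes -5 (-1.54). The pair is nearly identical in sequence, so reads could be lost from or shared between them, and their ratios are not independent. The related puf-5 had a log2 ratio of -0.24. The gene lin-41 was lower without overlap and below the 2-fold limit, at 92.4, 64.1, 108 and 80.3 CPM in the 4 oocytes -1 and 181, 173, 167 and 132 CPM in the 4 oocytes -5 (-0.91). The 36 measured genes of the list had a median of 0.06, with mex-3 at 0.39 and mex-1, pie-1 and ccf-1 each at 0.32 and with overlap.

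Cell cycle and meiotic genes differed little, with a few exceptions. The cyclin E gene cye-1, whose kinase partner drives DNA replication, had 40.9, 31.4, 41.8 and 39.4 CPM in the 4 oocytes -1 and 88.7, 88.1, 84.6 and 64.6 CPM in the 4 oocytes -5, 2.05-fold lower in oocyte -1, whereas the 27 measured replication genes had a median of 0.03. The gene chk-2, a kinase needed for pairing of chromosomes early in meiosis, had 2.92, 3.28, 4.04 and 0.0498 CPM in the 4 oocytes -1 and 10.6, 6.4, 9.49 and 9.21 CPM in the 4 oocytes -5 (-2.02), in a list of 48 meiotic genes with a median of 0.08. Among 25 kinases and cyclins of maturation (median 0.01), wee-1.3, which inhibits the maturation kinase, stood at 166 CPM in oocyte -1 and 234 CPM in oocyte -5 (-0.50) and cks-1 at -0.53, both lower without overlap. The phosphatase gene cdc-25.2, which works against wee-1.3, was higher without overlap, at 74.9 CPM in oocyte -1 and 59.3 CPM in oocyte -5 (0.34). Of 47 spindle and kinetochore genes 5 were higher without overlap and 1 lower, where 2.64% and 2.89% of all filtered genes were. Among the higher were the checkpoint gene bub-1, at 188 CPM in oocyte -1 and 126 CPM in oocyte -5 (0.58), and gpr-2 (0.71), both below 2-fold. The elongin C gene elc-1 was separated but at few reads, at 0.694 CPM in oocyte -1 and 4.84 CPM in oocyte -5 (-2.80), or -6.01 without oocyte -1 replicate 1 and -6.32 without both libraries that stand apart. Of the 33 actomyosin genes, with a median of 0.00 on the log2 scale, the Arp2/3 complex gene arx-6 was separated (-1.00).

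The broad lists of the cell's machinery lay within a narrow band, apart from the ribosome. Proteasome genes were higher in 23 of 31, with a median of 0.11 and 5 higher without overlap, among them rpn-2 and pbs-6 (0.42), where 2.64% of all filtered genes and 3.1% of those of at least 20 CPM were. Without both libraries that stand apart 29 of 31 were higher and the median was 0.19. Nuclear pore and transport genes were higher in 30 of 43 (median 0.12), and small RNA pathway genes in 23 of 30 (median 0.16), where the RNA-dependent RNA polymerase gene rrf-1 was higher without overlap (0.62). All 8 subunits of the CCT chaperonin, which folds tubulin and actin, were lower, with a median of -0.26 and overlapping oocytes in each. Of 32 aminoacyl-tRNA synthetases, with a median of -0.05, the tryptophan enzyme gene wars-1 was separated. It had 5.69, 32.6, 26.2 and 23.4 CPM in the 4 oocytes -1 and 4.99, 5.06, 2.42 and 2.4 CPM in the 4 oocytes -5 (2.41), with oocyte -1 replicate 1 just above the oocytes -5.

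Ribosomal protein genes were higher in 77 of 80, with a median log2 ratio of 0.45. Of the 80, 1 was higher without overlap and 0 were separated. Among all filtered genes 2.64% were higher without overlap and 0.723% separated and higher. The list took 2.47%, 2.87%, 1.61% and 1.68% of the counts of the 4 oocytes -1, and 2%, 1.96%, 2.32% and 1.12% of those of the 4 oocytes -5. Replicates 1 and 2 of oocyte -1 were high and oocyte -5 replicate 4 was low. Without oocyte -1 replicate 1 and oocyte -5 replicate 4 the median was -0.07, with 29 of 80 higher. Leaving out 1 oocyte at a time, it was 0.15 without oocyte -5 replicate 4 and 0.67 without oocyte -1 replicate 4. The pair left out together also holds the highest share of muscle markers (0.247%, oocyte -1 replicate 1) and of collagens (0.146%, oocyte -5 replicate 4), and the part of that in the ribosomal values was not tested. Mitochondrial ribosomal protein genes had a median of -0.07 over 70 members and translation factor genes 0.04 over 38. Of the 14 genes of the mitochondrial genome on the list, 12 were lower in oocyte -1, with a median of -0.25, 2 of them without overlap (2.89% of all filtered genes) and 0 at least 2-fold. The nuclear genes of the respiratory chain had a median of 0.05. Histone genes, of which only polyadenylated transcripts were read, were higher in 10 of 47, with a median of -0.24 and 0 without overlap.

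**Figure D4:**
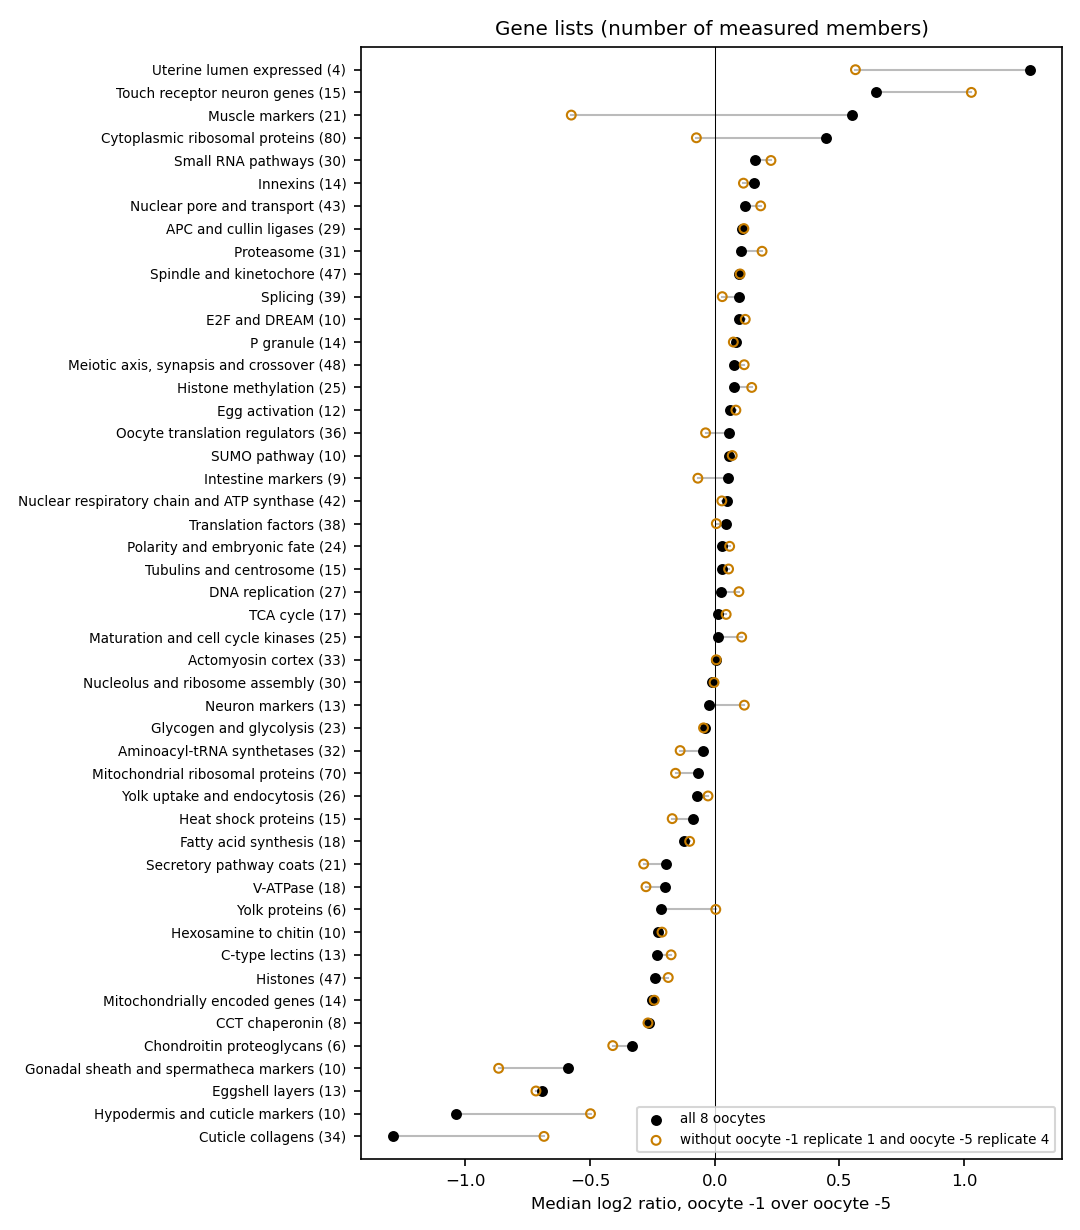
Median log2 ratio of oocyte -1 over oocyte -5 for gene lists with at least 3 measured members (number in brackets), over all 8 oocytes (filled) and without oocyte -1 replicate 1 and oocyte -5 replicate 4 (open). The ribosomal median moves to -0.07 and the muscle median to -0.58 without these libraries, whereas the eggshell median is -0.69 with and -0.72 without them.

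Most of the 10 most abundant genes stood at similar levels at both positions. The C-type lectin gene clec-87 had 12580.5, 32588, 19955 and 26405 CPM in the 4 oocytes -1 and 17087, 35736, 39110.3 and 15239 CPM in the 4 oocytes -5 (-0.20). The nucleoside diphosphate kinase gene ndk-1 had a log2 ratio of -0.03, ant-1.1, a carrier of ADP and ATP across the mitochondrial membrane, at -0.05, the elongation factor gene eef-1A.1 at 0.11, F23A7.8 at 0.15, F23A7.4 at 0.09, rmd-1 at -0.07, rpl-12 at -0.19 and sip-1, which encodes a small heat shock protein, at -0.37. Of the exonic bases of sip-1, 19.2% are shared with another gene, so its reads may be miscounted. Of the 10, cbd-1 alone did not overlap between the positions.

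Collagen genes of the cuticle, which are made by the skin of the worm, were lower in oocyte -1. Of 156 such genes 34 passed the filter, with a median of -1.29, 21 at least 2-fold lower and 7 separated, where 7.41% and 1.03% of all filtered genes were. Genes of few reads pass the 2-fold limit more often, at 35.7% in either direction between 1 and 5 CPM, and 15 of the 34 had a mean under 5 CPM. They took 0.0314%, 0.0209%, 0.0211% and 0.0301% of the counts of the 4 oocytes -1, and 0.0335%, 0.0321%, 0.0497% and 0.146% of those of the 4 oocytes -5. Oocyte -5 replicate 4 was the highest, and without both libraries that stand apart the median was -0.68. The gene col-101 had 18.7, 8.55, 9.2 and 10.9 CPM in the 4 oocytes -1 and 21.3, 21.7, 36.9 and 181 CPM in the 4 oocytes -5. Its log2 ratio of -2.58 was -1.02 without oocyte -5 replicate 4, and those of col-184 (-2.30), col-119 (-2.12) and col-140 (-1.68) were -1.00, -1.17 and -0.83. Without both libraries the 4 stood at -1.40, -1.15, -1.18 and -0.65. These genes were named because no oocytes overlapped, so the remaining 3 oocytes -5 lie above the oocytes -1 by that rule. The margin was smaller, and for col-140 the nearest oocytes stood at 38.43 CPM (oocyte -5 replicate 1) and 38.40 CPM (oocyte -1 replicate 2). Collagen genes are alike in sequence, so their single counts are uncertain.

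Muscle markers pointed the other way and rested on 1 cell. The list took 0.247%, 0.0943%, 0.119% and 0.121% of the counts of the 4 oocytes -1, and 0.086%, 0.0523%, 0.0501% and 0.154% of those of the 4 oocytes -5. Its median was 0.55, with 15 of 21 higher, and -0.58, with 3 of 21 higher, without both libraries that stand apart. Without oocyte -1 replicate 1 alone the median was -1.21. The muscle myosin light chain gene mlc-3 had 176, 8.01, 13.01 and 6.93 CPM in the 4 oocytes -1 and 16.2, 16.99, 15.98 and 40.9 CPM in the 4 oocytes -5. Its log2 ratio was 1.42, and -1.51 without oocyte -1 replicate 1, and that of clik-1 was 1.09 and -1.12. Without both they stood at -0.94 and -1.15. No member was without overlap. Markers of the gonadal sheath and spermatheca, the somatic cells that enclose the oocytes, took 0.0377%, 0.0164%, 0.0199% and 0.0216% of the counts of the 4 oocytes -1, and 0.0265%, 0.0232%, 0.0197% and 0.109% of those of the 4 oocytes -5. Their median was -0.59, or -0.87 without both libraries, 0.14 without oocyte -5 replicate 4 and -1.46 without oocyte -1 replicate 1. The sheath innexin gene inx-8, part of the gap junctions between sheath and oocyte, had a log2 ratio of -2.02, 0.96 without oocyte -5 replicate 4, -4.33 without oocyte -1 replicate 1 and -1.35 without both. Genes of yolk proteins, a product of the intestine, took at most 0.0297% of an oocyte's counts and had a median of -0.22. It was -1.12 without oocyte -1 replicate 4, 0.19 without oocyte -5 replicate 3 and 0.004 without both libraries that stand apart. The median of the intestine list was 0.05, or -0.53 without oocyte -1 replicate 4 and 0.50 without oocyte -5 replicate 3. Yolk protein genes are near-identical in part, which leaves their counts uncertain.

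**Figure D5:**
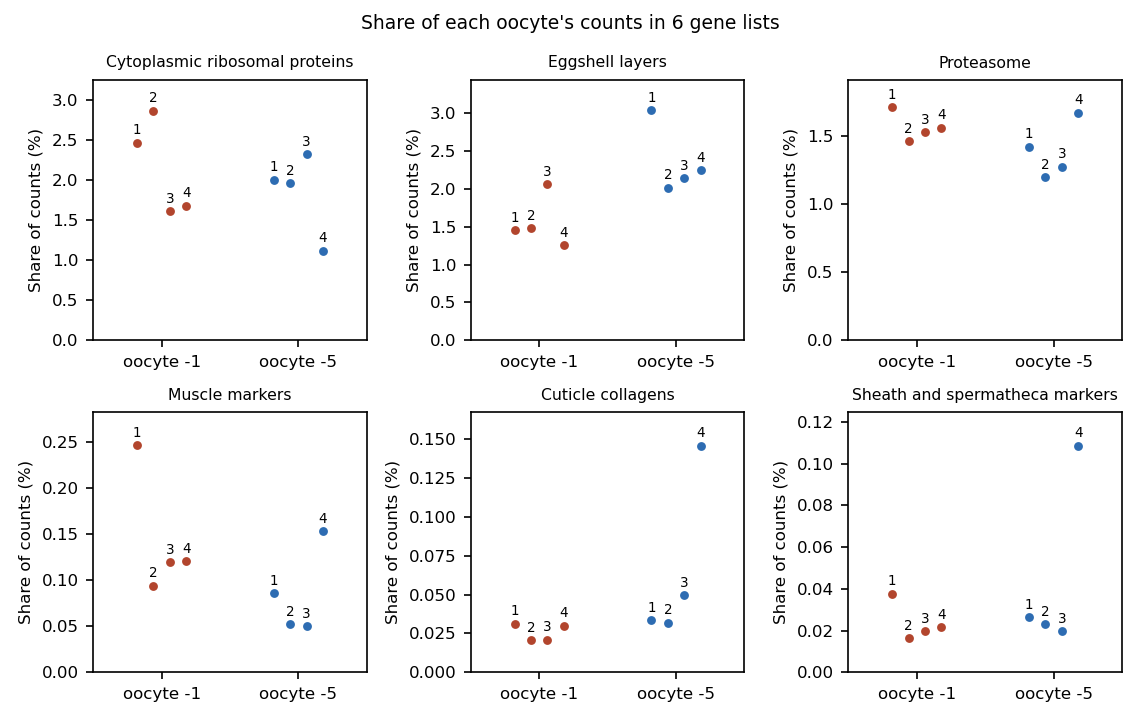
Share of each oocyte's counts (percent) taken by 6 gene lists, with replicate numbers beside the points and oocytes -1 left of oocytes -5. Oocyte -1 replicate 1 stands highest for muscle markers, at 0.247%, and oocyte -5 replicate 4 highest for collagens, at 0.146%, and for sheath and spermatheca markers, at 0.109%.

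Neuron markers as a list did not lean towards either position. Of 13 measured, 6 were higher in oocyte -1 and 7 lower, with a median of -0.02 and unc-10, a gene of the presynaptic zone, at -1.63 with overlap. The synaptotagmin gene snt-1 was separated and higher, at 2.03 CPM in oocyte -1 and 0.546 CPM in oocyte -5 (1.90). Other separated genes of this kind, picked after their values were seen, went both ways. The serotonin receptor gene ser-7 was lower, at 0.033 CPM in oocyte -1 (95% interval 0.004 to 0.119) and 1.96 CPM in oocyte -5 (1.6 to 2.37), and the neuropeptide gene flp-8, the ion channel complex gene unc-80 and the GABA receptor homolog gene rdl-1 were higher. The gene flp-8 had 7.49, 9.46, 9.53 and 29.1 CPM in the 4 oocytes -1 and 4.28, 5.61, 3.58 and 3.78 CPM in the 4 oocytes -5 (1.83, or 0.98 without oocyte -1 replicate 4). The ratio of unc-80 was 1.57 and that of rdl-1 2.67. Genes of the touch receptor neurons were higher in 13 of 15, with a median of 0.65. With 1 oocyte left out the median ranged from 0.16 without oocyte -1 replicate 4 to 0.92 without oocyte -5 replicate 1. Without both libraries that stand apart it was 1.03, with 14 of 15 higher. Of the 15, 3 were separated, beside 0.723% of all filtered genes. The list was added after seeing the data, so these counts only describe it and are no evidence. A mean under 5 CPM was held by 7 of the 15, and between 1 and 5 CPM 35.7% of all filtered genes pass the 2-fold limit. In this list mec-17, which encodes a tubulin acetyltransferase, had 125, 197, 234 and 299 CPM in the 4 oocytes -1 and 306, 73.7, 43.2 and 167 CPM in the 4 oocytes -5. Its positions overlapped through replicates 1 and 4 of oocyte -5. The touch channel gene mec-10 was separated (1.47, or 0.74 without oocyte -1 replicate 4), as were mec-1 (1.89, or 1.01 without it) and the transcription factor gene unc-86 (2.92, or 3.53 without oocyte -5 replicate 1). The list took 0.0473%, 0.0477%, 0.0619% and 0.0879% of the counts of the 4 oocytes -1, and 0.0757%, 0.0249%, 0.0174% and 0.0514% of those of the 4 oocytes -5.

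Many of the highest ratios named above lie on the X chromosome. It was examined because it is largely silent in the early germline and active in oogenesis. Its genes took 5.95%, 7.09%, 6.74% and 6.71% of the counts of the 4 oocytes -1 and 5.68%, 7.04%, 6.46% and 5.60% of the 4 oocytes -5, which overlap. Of 1029 X genes that passed the filter, 14 were separated and higher (1.36%) and 14 separated and lower (1.36%), beside 0.723% and 1.03% over all genes. The higher ones include ZC373.2, ule-5, ZK813.3 and others already named above, so their share is no further evidence. The median log2 ratio of X genes was 0.03.

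Between the positions compared, some genes of few reads had counts in 1 and none in the other, whether or not they passed the filter. At least 3 counts in each oocyte -1 and 0 in each oocyte -5 were seen for 3 genes, among them bath-35 with 26, 10, 14 and 58 counts in the 4 oocytes -1. At position -3 bath-35 stood at 0.429 CPM, and dyf-3, another of the 3, at 31.8 CPM, beside 1.24 CPM in oocyte -1. Against 3 counts over the group, bath-35 was at least 31.6-fold higher in oocyte -1. The reverse held for 6 genes, among them C39E9.8 with 17, 19, 50 and 84 counts in the 4 oocytes -5. Of the 63 separated higher genes 37 had a mean under 5 CPM, and of the 90 lower ones 45 did.

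The direction of most genes was the same in the authors' deposited table of this comparison. Of its 7286 genes 6819 passed the filter used here, and for 6328 of them (92.8%) the authors' deposited table gave a log2 fold change of the same sign. Both come from the same counts, so this checks the processing and is no further evidence. The authors' deposited table gave 4.49 for ZC373.2, 4.20 for ule-5 and -1.51 for puf-11.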

How the data were processed

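The authors deposited raw read counts per gene, 1 column per oocyte. Per the submitters' processing notes cutadapt 1.18 trimmed the reads, FastQC 0.11.5 was run and STAR aligned them. Counting used featureCounts (1.5.3 per those notes, 1.6.4 per the file headers) on the WormBase WS271 gene set, and the command in the header sets no option for strand, multi-mapping or overlapping features. Without strand, overlapping and antisense genes cannot be told apart. Which genome build was used is not stated in the notes or headers, and positions are printed as the count table has them. The deposited comparison table holds the authors' log2 fold changes from DESeq2 1.32.0.

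Genes were filtered with filterByExpr and libraries scaled by TMM in edgeR 4.0.16 (R 4.3.3) over all 12 libraries. Levels, intervals and counts of genes were computed in Python 3.11.15 with numpy 2.4.6, pandas 2.3.3 and scipy 1.17.1, and recovery of known ratios was tested on simulated data. Nothing was tested between positions, since cells are not replicates, and whether oocytes share an animal is not stated. Alternatives were RLE factors, total counts, a mean of single-oocyte CPM, other filters and leaving out oocytes. Named genes were the 12 highest and 12 lowest log2 ratios of at least 20 CPM without overlap, the 6 largest CPM differences each way without overlap, the 10 most abundant, and in each list the separated members or otherwise up to 4 of at least 5 CPM with the largest ratios. Genes named beyond these, such as neighbours of a named gene, paralogs and list members given for contrast, were chosen after their values were seen. The members and the gene lists were chosen with earlier results of these data known, and 4 of 49 lists were added after seeing the data.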

Additional observations from a re-analysis of the deposited data

Results flagged for a closer look

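In 7 of the 178 groups of 4 oocytes that were looked at, for named genes and for the shares of lists, the highest or lowest oocyte lay far from the other 3 by Dixon's criterion. The criterion is set to flag about 1 of 20 groups of independent, normally distributed values. These groups share oocytes and some genes were named by their values, so the number flagged cannot be weighed against that rate. For the collagen gene col-140, oocyte -1 replicate 1 had 23.8 CPM, far from the other oocytes -1. For trcs-2, oocyte -1 replicate 3 had 132 CPM. For ldp-1, oocyte -5 replicate 1 had 383 CPM and the other oocytes -5 at most 249.9 CPM. In oocyte -1 replicate 1, the share of heat shock protein genes was 1.35% and that of P granule genes 0.34%. In oocyte -5 replicate 4, the share of hypodermis and cuticle markers was 0.0731% and that of genes of glycogen and glycolysis 0.961%. Of the 7 values, 3 belong to oocyte -1 replicate 1 and 2 to oocyte -5 replicate 4, the libraries already named for their somatic markers. With so few values no pattern is read from this.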

How the results depend on the processing

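Leaving the filter aside except for 3 counts over the 8 oocytes, genes at least 2-fold higher in oocyte -1 numbered 1687 and those at least 2-fold lower 2042, with 106 separated and higher. With a mean of at least 20 CPM the counts were 12 and 63, with 9 separated and higher and 33 separated and lower. With filter and scaling on the 8 libraries alone 277 were at least 2-fold higher. Total counts without a scaling factor left 164 genes lower without overlap. Without both libraries that stand apart, which loosens the criterion of no overlap by construction, 665 were higher and 592 lower without overlap, 196 and 221 of them at least 2-fold. Leaving out 1 oocyte at a time gave 299 to 489 higher and 343 to 404 lower without overlap, and 85 to 142 and 122 to 155 separated. The log2 ratio of the X share, 0.086, ranged over 0.03 to 0.16.

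Of 170 named genes, none moved under RLE factors, total counts or a mean of single-oocyte CPM. With 1 oocyte left out the sign turned for 19 whose ratio was under 2-fold as reported, none above 0.87 in size, and for 3 at least 2-fold apart. Of these 3, clik-1 and mlc-3 stood at -1.15 and -0.94 without both libraries that stand apart and ranged from -1.12 to 1.54 and from -1.51 to 2.00 with 1 oocyte left out, and inx-8 ranged from -4.33 to 0.96. Of 49 list medians, 7 moved by more than the spread between oocytes without both libraries, 6 with total counts and 0 with RLE factors. Scaling shifted the median over all genes from -0.01 to 0.07 with total counts. No paired analysis was possible because the values come from no test and the labels tie no replicate number to an animal. With 4 cells a position, counts near 3 limit what can be said of the lowest genes.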

Other observations

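Several separated genes of few reads lay at the low end of the ratios and were picked after their values were seen. T22A3.12 (I, 10594474 to 10595487) had 0, 0, 0.449 and 0 CPM in the 4 oocytes -1 and 8.64, 5.77, 11.9 and 4.06 CPM in the 4 oocytes -5, a log2 ratio of -6.74 that rests on 4 counts in oocyte -1, or -6.15 without oocyte -1 replicate 1. The glutathione S-transferase gene gst-10 had 0, 0, 1.01 and 0.747 CPM in the 4 oocytes -1 and 1.82, 21.4, 4.16 and 2.46 CPM in the 4 oocytes -5, with a log2 ratio of -4.17, or -2.77 without oocyte -5 replicate 2. The gene pmt-1, which encodes a methyltransferase of phosphatidylcholine synthesis, had 1.51, 0.091, 0.897 and 2.24 CPM in the 4 oocytes -1 and 7.84, 6.4, 7.94 and 2.92 CPM in the 4 oocytes -5 (-2.07). On III, spp-1 (10355122 to 10355982) and umps-1 (10355799 to 10357761) overlap and were both separated and lower in oocyte -1, at -3.35 and -1.14 on the log2 scale, with spp-1 at -2.73 without oocyte -5 replicate 1. Since the counting command sets no strand option and umps-1 is far more abundant, the counts of spp-1 are uncertain.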
